A study of Homo sapiens with 9 samples.

Results

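RNA sequencing of poly(A) RNA from NCI-H358 cells was used to ask how a sotorasib-resistant derivative differed from its parent when no drug was present. The comparison took the 3 libraries of resistant cells grown without sotorasib and the 3 libraries of parental cells, out of 9 libraries in the series, and covered every gene in the count table. Of 60230 genes listed, 17307 passed the filter on low counts and were tested. The filter took in all 9 libraries, so a gene could pass it through the libraries outside this comparison alone. With only the 6 libraries compared, 15988 genes were tested. NCI-H358 is an established human lung cancer line of epithelial origin, and sotorasib is a drug targeted at cancer cells. The parental cells responded to it and had received none. NCI-H358-R, their resistant derivative, was raised under sotorasib and profiled either without it (off drug) or 4 days after a dose of 250 nM (on drug). The length of the drug-free period before profiling is not stated in the labels. NCI-H358-R is the only resistant derivative in the series, so differences tied to resistance, to time off drug and to the history of this culture cannot be told apart. The 3 libraries of each group are described as biological replicates, but separate cultures are not mentioned. The p-values therefore reflect the spread among libraries, part of which may be technical.

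A drug-selected cell population can differ from its parent in the output of the targeted pathway, and it can also gain or lose genes that belong to other tissues or to specialised epithelial functions. Such genes are often held close to silence in a given line, and a change from silence is read differently from a change in level. Secreted airway proteins, mucin glycan enzymes and gap junctions are typical products of differentiated lung epithelium, whereas cancer-testis antigens are germ-cell genes that many tumour lines transcribe. Genes of the ERK output, of the cell cycle and of the mesenchymal, TGF-beta and YAP programme are not described for their own sake. Among those that do appear are the switched gene ANKRD1, the fibroblast markers COL1A1 and COL3A1, and TEAD1 in a run of neighbouring genes.

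The parental libraries held 25.7 to 31.79 and the off-drug libraries 25.73 to 33.99, in units of 1e6 counts, and 3 counts in one library corresponded to 0.0883 to 0.1167 counts per 1e6 counts (CPM). Levels below are CPM scaled by the trimmed mean of M-values (TMM), changes are log2 fold changes (off drug minus parental) ± standard error, and calls were made with edgeR's quasi-likelihood test at an adjusted p (Benjamini-Hochberg) under 0.05. CPM is not scaled for gene length, so it is compared only between libraries for the same gene. In all, 9515 genes (55%) were called, of which 4913 (28.4% of those tested) were higher and 4602 (26.6%) lower, and the median change over all genes tested was 0.00. With so many calls, a list with shares of its members near these is at the background. Among genes that changed at least 2-fold, 1297 (7.49%) were higher and 1684 (9.73%) lower. Without off-drug replicate 2, 8421 of the 9515 calls stood in the same direction and 0 in the opposite one. That fit tested 17935 genes and called 4436 (24.7%) higher and 4273 (23.8%) lower. Of the 2981 calls of at least 2-fold, 2800 stood without it. Genes that mark a lung epithelial line were checked in every library. KRT8, a keratin of simple epithelia, was at 1785, 1857 and 2128 CPM in parental and 1928, 1875 and 1829 CPM in off-drug libraries, with no call (−0.04 ± 0.09, adjusted p = 0.77). NKX2-1, the lung lineage transcription factor, was present in all 6 libraries and fell from 65.2 ± 2.58 to 30.7 ± 1.35 CPM (mean ± SD, n = 3; −1.09 ± 0.08). EPCAM, an epithelial surface gene, was at 764, 783 and 919 CPM in parental and 397, 429 and 407 CPM in off-drug libraries and was called lower (adjusted p = 6.7e-08). Of the 19 genes of this list 14 were tested, with 1 higher and 7 lower, and the surfactant genes SFTPA1, SFTPB and SFTPC had no count in any of the 6 libraries.

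A gene counted as switched on when it was at 0.1 CPM or less in all 3 parental libraries and at 1 CPM or more in all 3 off-drug libraries, and as switched off in the reverse case. By this rule 18 genes (0.0299% of the 60230 listed) were switched on and 9 (0.0149%) were switched off, and all 27 passed the filter on low counts, which they could do through 1 group alone. The rule sets the direction and size of their change, so the values are given as a description. Just inside the rule for genes switched on lay LINC01638, with 1.02 CPM in its lowest off-drug library, and TENM2, with 0.0981 CPM in its highest parental library. Just outside lay LINC01711, which reached 0.995 CPM, and BPIFB4, with 0.12 CPM in a parental library. Of the genes switched off, TMEM132D-AS1 had 1.05 CPM in its lowest parental library and AGR3 0.0819 CPM in its highest off-drug library, whereas LINC01602 at 0.981 CPM and PTGS1 at 0.119 CPM lay just outside.

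The 18 genes switched on comprised 16 protein-coding genes and 2 long noncoding RNAs, and none formed a neighbouring pair within 200 kb. Several encode receptors and their regulators. F2RL2 encodes a protease-activated receptor. It had 0, 2 and 0 counts in the parental libraries and 2.74, 3.11 and 4.24 CPM off drug. PDGFRB, a receptor tyrosine kinase of mural and stromal cells, had 0, 0 and 1 count in parental libraries and 2.46, 1.56 and 2.05 CPM off drug. IL13RA2, a decoy receptor for interleukin 13, was at 0.0327, 0.0801 and 0 CPM in parental and 1.47, 1.56 and 2.15 CPM in off-drug libraries. RGS4, which shortens signalling from G protein-coupled receptors, had no count in any parental library. It stood at 1.63, 1.56 and 1.32 CPM off drug, which is at least 13.6-fold above the level that 3 counts per parental library would give. ECSCR, a surface protein known from endothelial cells, likewise had no parental count and 1.07, 1.23 and 1.41 CPM off drug (at least 11.2-fold).

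Another group of switched genes acts in or on the extracellular matrix. ADAMTS9 and ADAMTS12 are secreted metalloproteases. ADAMTS9 was at 0.0327, 0.0401 and 0 CPM in parental and 1.67, 1.43 and 1.64 CPM in off-drug libraries, and ADAMTS12 at 0.0654, 0.0401 and 0.0745 and 1.71, 1.27 and 1.44 CPM. COL27A1, a fibrillar collagen, was at 0, 0.0401 and 0.0372 CPM in parental and 1.11, 1.51 and 1.8 CPM in off-drug libraries. CHI3L1, a secreted chitinase-like glycoprotein, was at 0.0327, 0.0801 and 0.0372 and 1.43, 1.39 and 1.25 CPM. TENM2, a teneurin adhesion protein, was at 0.0981, 0 and 0 CPM in parental and 2.94, 3.11 and 2.89 CPM in off-drug libraries.

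The other coding genes switched on were the metabolic enzyme gene NNMT, the zinc finger gene BNC2, the kinase gene ALPK2, ANKRD1, EIF3CL and FRG2. NNMT, which methylates nicotinamide, was at 0, 0.0401 and 0.0745 CPM in parental and 2.3, 1.76 and 2.41 CPM in off-drug libraries. BNC2 was at 0.0327, 0.0401 and 0 and 2.42, 2.5 and 1.77 CPM. EIF3CL is a near-identical copy of EIF3C and FRG2 belongs to a family of near-identical copies, so their reads could be divided among copies and their values are uncertain. EIF3CL varied most among the off-drug libraries, at 1.55, 1.76 and 5.2 CPM. In on-drug cells 12 of the 18 genes also had at least 1 CPM in all 3 libraries, 6 lay between the limits in at least 1 library, and 0 were at or below 0.1 CPM in all 3. F2RL2 and TENM2 stood higher on drug, at 16.3, 14.5 and 16.1 and 11.2, 8.51 and 8.82 CPM, whereas FRG2 was at 0.105, 0 and 0.0259 CPM there.

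Of the 9 genes switched off, 6 were protein-coding. AGR3, a disulfide isomerase family gene of secretory and ciliated airway cells, was at 4.78, 4.29 and 4.77 CPM in parental libraries and had 1, 2 and 1 count off drug. NUDT7, a peroxisomal enzyme gene of coenzyme A breakdown, was at 3.24, 3.57 and 3.54 CPM and had 1, 1 and 0 counts off drug. PTCHD4, a patched-related membrane protein gene, was at 4.15, 3.25 and 2.87 CPM and had 1, 2 and 0 counts off drug. BBOX1, which completes carnitine synthesis, was at 1.54, 1.16 and 1.53 CPM and had 0, 1 and 0 counts. IGSF11, an adhesion molecule gene, was at 1.9, 1.44 and 1.56 CPM with 1, 1 and 0 counts off drug, and HFM1, a meiotic DNA helicase gene, at 1.08, 1.24 and 1.34 CPM with 1 count in each off-drug library. The on-drug libraries parted these genes. AGR3 was at 2.64, 4.2 and 3.8 CPM and PTCHD4 at 1.28, 1.21 and 1.89 CPM on drug, in both genes below the parental range in every library, whereas NUDT7 had no count in any on-drug library. By the same limits, 2 of the 9 were on in on-drug cells, 3 lay between and 4 were near zero.

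**Figure D1:**
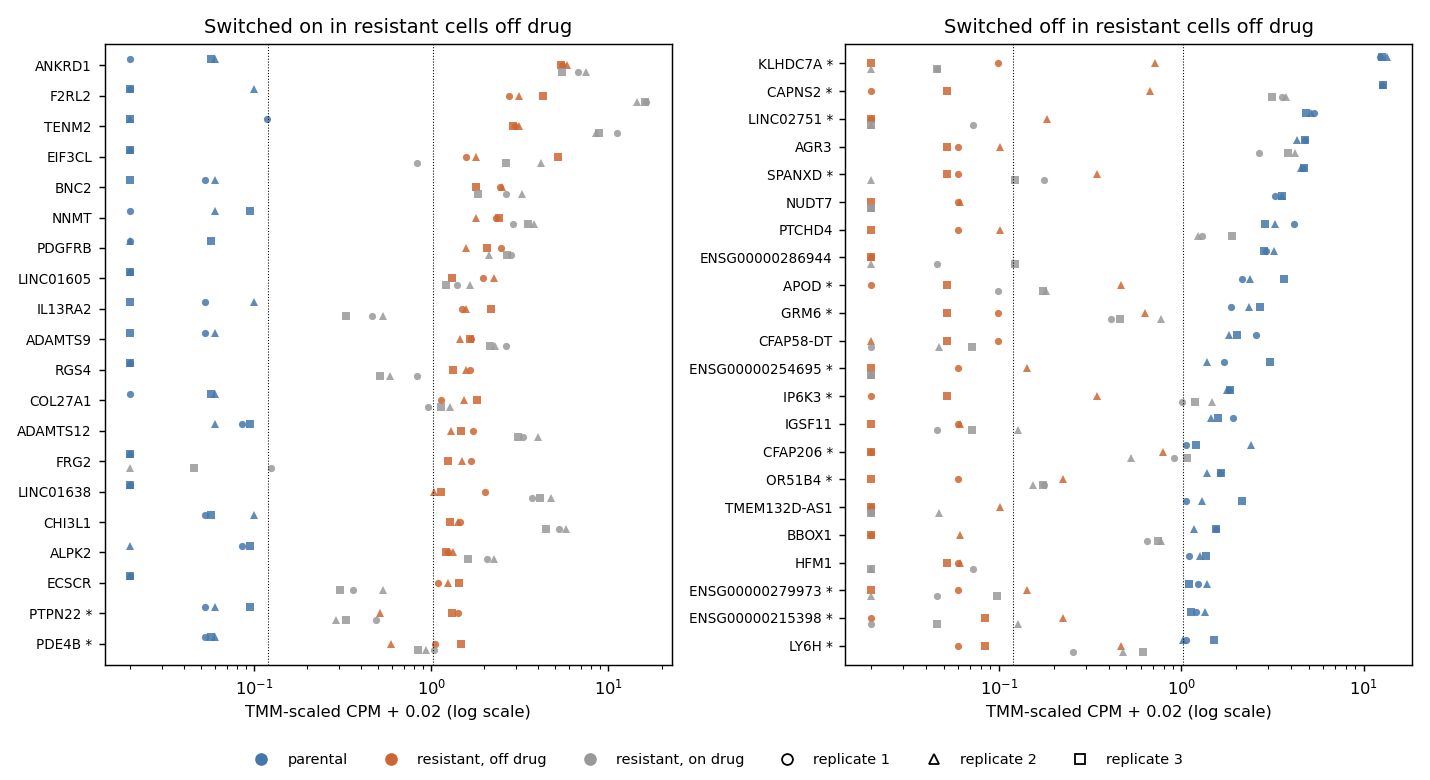
TMM-scaled CPM plus 0.02 on a log axis for each gene switched on (left) or off (right) in resistant cells off drug, with 1 point per library, colour for the group and shape for the replicate number; dotted lines mark 0.1 and 1 CPM, and an asterisk marks genes that met the rule only without off-drug replicate 2. Among the starred genes on the right, the triangle of off-drug replicate 2 lies above the near-zero limit while the other off-drug libraries lie below it.

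The sequences before the starts of 4 switched genes are shown because they were, of the genes with a promoter in the RefSeq table (GRCh38.p14), the 2 per direction with the highest TPM where on. They were read as the 250 bases before the first start listed for each gene, 5′ to 3′ on the gene's strand, with matches to 4 motifs in capitals. The motifs, searched on both strands, were TGANTCA (AP-1), GGAATG (TEAD), CAGGTG (the E-box bound by ZEB-type factors) and TGACNNNGC (the antioxidant response element).
ANKRD1, switched on, chr10:90921088-90921337, minus strand: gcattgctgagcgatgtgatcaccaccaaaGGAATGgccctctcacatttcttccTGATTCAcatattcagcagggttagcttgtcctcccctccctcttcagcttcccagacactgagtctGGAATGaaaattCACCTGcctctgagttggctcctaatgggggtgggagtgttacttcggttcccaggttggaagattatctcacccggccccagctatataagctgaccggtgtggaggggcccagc
LINC01638, switched on, chr22:27224680-27224929, minus strand: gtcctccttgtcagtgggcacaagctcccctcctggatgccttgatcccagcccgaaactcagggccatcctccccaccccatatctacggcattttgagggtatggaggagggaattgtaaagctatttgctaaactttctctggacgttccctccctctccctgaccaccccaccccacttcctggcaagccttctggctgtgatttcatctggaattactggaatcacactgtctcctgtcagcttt
AGR3, switched off, chr7:16881984-16882233, minus strand: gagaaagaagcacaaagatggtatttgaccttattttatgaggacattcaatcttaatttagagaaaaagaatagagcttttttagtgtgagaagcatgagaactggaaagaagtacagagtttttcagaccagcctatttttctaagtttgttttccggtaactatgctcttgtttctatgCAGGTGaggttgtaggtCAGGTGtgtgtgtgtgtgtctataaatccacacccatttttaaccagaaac
NUDT7, switched off, chr16:77722264-77722513, plus strand: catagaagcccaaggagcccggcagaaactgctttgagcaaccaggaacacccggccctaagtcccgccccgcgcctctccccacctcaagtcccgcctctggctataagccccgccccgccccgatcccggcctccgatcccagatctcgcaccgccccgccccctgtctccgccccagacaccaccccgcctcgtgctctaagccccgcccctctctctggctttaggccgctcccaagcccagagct
The capitals in ANKRD1 mark 1 AP-1, 2 TEAD and 1 E-box match, and those in AGR3 mark 2 E-box matches, while the other 2 sequences hold no match. ANKRD1, a muscle ankyrin-repeat gene and a known YAP and TEAD target, had 0, 0.0401 and 0.0372 CPM in parental and 5.48, 5.85 and 5.42 CPM in off-drug libraries. The NUDT7 sequence has 19 CG dinucleotides, against 1 in AGR3, 3 in LINC01638 and 4 in ANKRD1. Over windows of 300 bases (250 before to 50 after the start), 2 of the 13 matched genes switched on (15.4%) and 3 of the 7 switched off (42.9%) were CpG-rich, that is with a GC share of at least 50% and an observed to expected CG ratio of at least 0.6. The share was 76.4% over the 12166 tested genes with a window and 46.9% over all 27305 windows. An AP-1 match stood in 3 of the 13 windows of genes switched on (23.1%), against 7.76% of all windows and 4.98% of those of genes tested. A TEAD match stood in 4 (30.8%), against 14% and 11.1%. The E-box stood in 3 (23.1%), against 20.6% and 19%, and the antioxidant response element in 2 (15.4%), against 13.6% and 15.2%. Of the 7 windows of genes switched off, 1 held an AP-1 match (14.3%), 0 a TEAD match and 2 each of the other motifs (28.6%). Without off-drug replicate 2 there were 14 such windows, with AP-1 in 3 and TEAD in 3 (21.4% each). With so few windows these shares are a description, and a match of letters is not a bound site.

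The largest rises among called genes above a set average level over all 9 libraries took in genes that did not meet the rule for switching on. BPIFB4, a gene of the bactericidal/permeability-increasing fold family of secreted proteins, had 0.0327, 0.12 and 0.112 CPM in parental, 16.4, 14.4 and 14.4 CPM in off-drug and 133, 131 and 123 CPM in on-drug libraries. HAPLN1, which links hyaluronan to proteoglycans, showed the same order, with 0.131, 0 and 0.112, then 4.92, 3.4 and 4.49, then 110.3, 138 and 110.5 CPM. CXCL14, an epithelial chemokine, had no parental count and was still low off drug, at 0.198, 0.287 and 0.257 CPM, but reached 8.68, 9.9 and 8.82 CPM on drug. For these 3 genes the off-drug libraries stood between the other groups. The filter on low counts took in all 9 libraries, and CXCL14 could pass it only through those on drug.

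A different set was high off drug and low in both other groups. CD22 and MAG encode sialic acid-binding lectins, the first known from B cells and the second from myelin, and they are neighbours on chromosome 19. CD22 (ENSG00000012124.17) was at 10.3, 12.3 and 11.9 CPM in parental and 135, 136 and 138 CPM in off-drug libraries and at 10.7, 7.94 and 10.7 CPM on drug, a rise of 3.57 ± 0.11 off drug (adjusted p = 3.7e-12). MAG was at 1.11, 0.922 and 0.707 CPM in parental, 34.3, 30.9 and 35.3 CPM in off-drug and 4.11, 3.9 and 2.87 CPM in on-drug libraries (5.18 ± 0.17). The 4 tested genes in a row here (chromosome 19, 35268978 to 35353862, GRCh38), USF2, MAG, CD22 and FFAR1, all rose at least 2-fold. USF2, a ubiquitous transcription factor, rose by 1.17 ± 0.09 and FFAR1, a fatty acid receptor gene, by 3.22 ± 0.70. The 4 also rose at least 2-fold without off-drug replicate 2.

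The hair keratin genes on chromosome 12 (52249300 to 52321398) were also highest off drug. KRT81, a cysteine-rich keratin of the hair cortex, was at 181, 175 and 228 CPM in parental, 1422, 1255 and 1468 CPM in off-drug and 53.7, 51.7 and 53.3 CPM in on-drug libraries (2.83 ± 0.11, adjusted p = 1.4e-11). KRT86 was at 13, 11.2 and 13.8 CPM in parental and 114, 112 and 124 CPM in off-drug libraries (3.20 ± 0.10), and KRT83 rose by 1.84 ± 0.43. These genes are close in sequence, so the division of reads among them is uncertain. BCL2A1, a survival gene of the BCL2 family, was at 0.262, 0.521 and 0.447 CPM in parental, 11.9, 12.9 and 13.6 CPM in off-drug and 0.758, 1.24 and 1.27 CPM in on-drug libraries (4.98 ± 0.24). LTF, the iron-binding secreted protein lactoferrin, was at 0.164, 0.0401 and 0.0745, 3.06, 3.23 and 3.53 and 0.157, 0.135 and 0.0776 CPM in the same order of groups (5.03 ± 0.40). MYBPH, a myosin-binding protein gene, and UCN2, a peptide hormone gene of the corticotropin-releasing family, rose by 5.41 ± 0.42 and 5.06 ± 0.27.

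**Figure D2:**
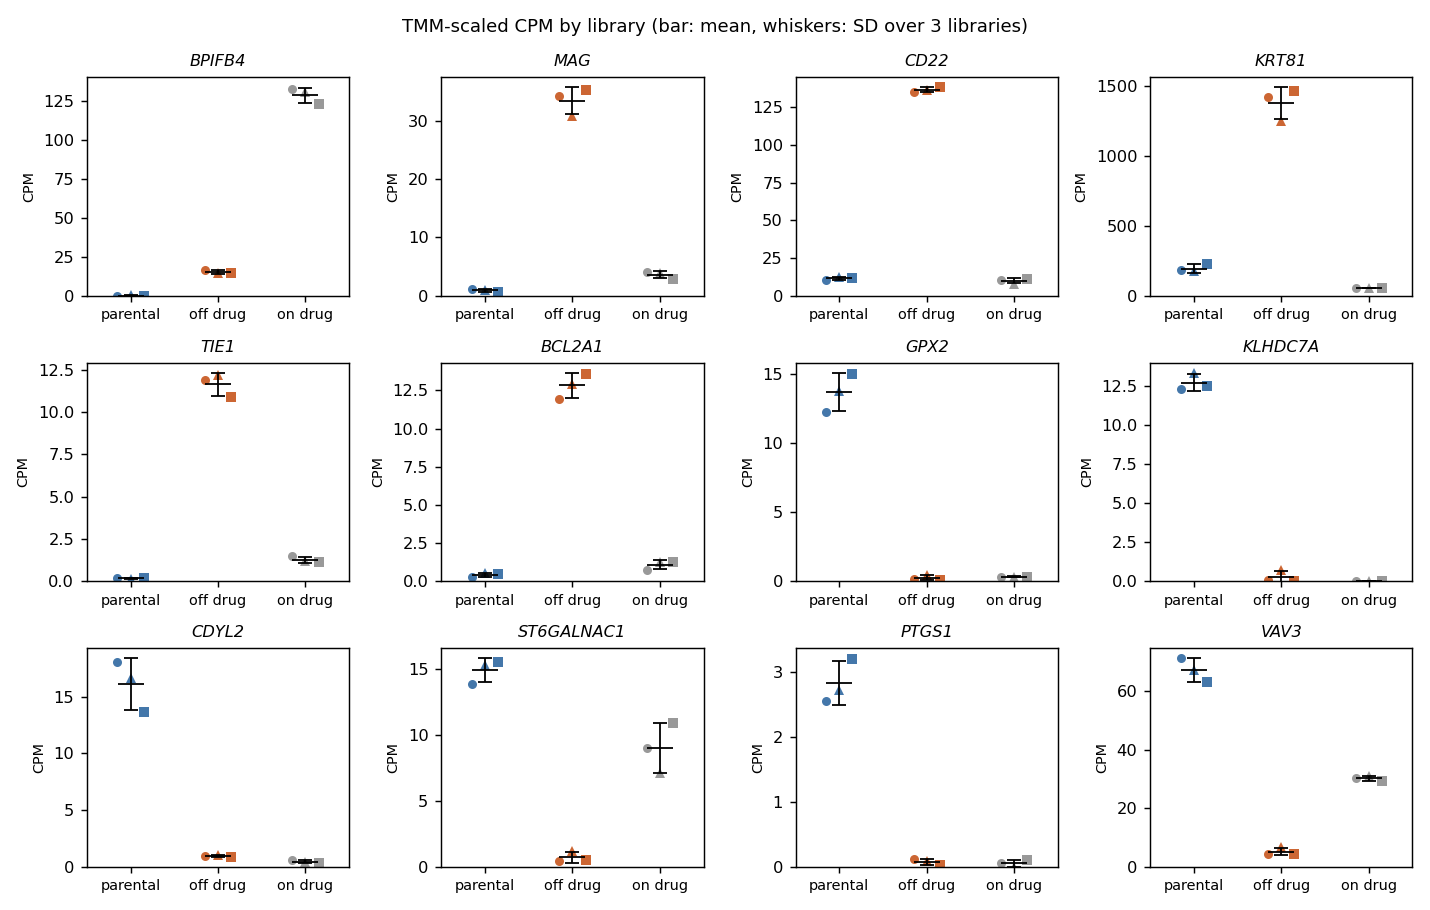
TMM-scaled CPM (vertical axes from 0) of 12 genes in the 3 libraries of each group, with points for libraries (circle, triangle and square for replicates 1, 2 and 3), a bar at the mean and whiskers of 1 SD. CD22, MAG, KRT81, TIE1 and BCL2A1 are highest off drug, BPIFB4 is highest on drug, and GPX2, KLHDC7A, CDYL2, ST6GALNAC1, PTGS1 and VAV3 are lowest or near their lowest off drug.

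Genes known from endothelial cells were among the rises. TIE1, an endothelial receptor kinase, was at 0.196, 0.12 and 0.186 CPM in parental and 11.9, 12.2 and 10.9 CPM in off-drug libraries (6.06 ± 0.23). ESAM, an adhesion molecule of endothelial junctions, was at 0.785, 1 and 1.23 and 15.7, 16 and 16.9 CPM (4.02 ± 0.18), and PECAM1, another junction molecule, at 0.785, 0.841 and 0.782 and 5, 4.67 and 5.39 CPM (2.64 ± 0.26). Of the 20 endothelial markers listed, 12 were tested, of which 7 rose and 1 fell, and 7 of the 20 were at or below 0.1 CPM in all 6 libraries. The summed level of the list was 43.7 to 50.3 CPM in parental and 78 to 80.2 CPM in off-drug libraries. EGFL7, the marker of this list with the highest parental level, went down, from 24.3, 26.3 and 33.6 to 15.7, 16.1 and 18.3 CPM. The transcription factor gene ERG and the surface genes CD34, EMCN and FLT1, which define endothelium, had no count in any of the 6 libraries. CDH5, the endothelial cadherin gene, was at 0.0327, 0.361 and 0.335 CPM in parental and 0.159, 0.123 and 0.385 CPM in off-drug libraries.

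Among leukocyte markers the pattern was similar. CD79A, part of the B cell receptor, rose from 0.949, 0.641 and 0.819 to 11.3, 8.84 and 12.9 CPM (3.76 ± 0.28), and CORO1A, an actin-binding protein gene, from 47 ± 4.44 to 133 ± 6.05 CPM (1.51 ± 0.09). CD14, a coreceptor for bacterial lipopolysaccharide, fell from 2.39, 2.85 and 4.62 to 0.397, 0.287 and 0.706 CPM (−2.78 ± 0.36). Of 20 leukocyte markers 6 were tested, with 4 higher and 1 lower, and their summed level was 273.8 to 275 CPM in parental and 394.8 to 415.8 CPM in off-drug libraries. PTPRC, the pan-leukocyte gene, stayed at or below 0.0963 CPM in all 6 libraries, and CD3D, CD3E, MS4A1, TYROBP and AIF1 had no count. Of 14 fibroblast markers, 8 were tested, with PDGFRB among the 3 that rose and COL1A1 lower (−0.93 ± 0.10), and COL3A1, DPT, ASPN, OGN and PDPN had no count in any of the 6 libraries. COL3A1 was still among the 8 tested, because it passed the filter through the on-drug libraries. The summed level of all 14 was 27.1 to 31.1 CPM in parental and 18.3 to 19.1 CPM in off-drug libraries.

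Markers of ciliated airway cells went the other way. Of 15 listed, 10 were tested, with 0 higher and 5 lower, and their summed level was 204.8 to 255.9 CPM in parental and 14.4 to 21.8 CPM in off-drug libraries. CAPS, a calcium-binding protein gene, made up most of that sum, at 168, 166 and 215 CPM in parental and 2.22, 8.39 and 1.93 CPM in off-drug libraries (−5.49 ± 0.34). TPPP3, a tubulin-binding protein gene, fell from 19.1, 17.1 and 22.3 to 0.794, 1.35 and 0.77 CPM (−4.34 ± 0.19). FOXJ1, the transcription factor of motile cilia, fell from 4.55, 5.41 and 6.29 to 2.18, 2.54 and 3.24 CPM (−1.02 ± 0.22). The axonemal dynein genes DNAH9, DNAI1 and DNAI2 had no count in any of the 6 libraries. The falls were not limited to ciliated markers. Of 22 neuroendocrine and neuronal markers, 7 were tested, with 0 higher and 5 lower, and 4 lower without off-drug replicate 2. Their summed level was 214 to 216 CPM in parental and 156 to 171 CPM in off-drug libraries.

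Gene lists for 25 functions were counted against the background of 28.4% higher and 26.6% lower, and 24 of them are reported here. Most of the lists that stood away from it leaned to lower levels off drug. The highest share lower was that of the plasma proteins, with 4 of 5 tested members, of 37 listed, and 2 of 5 without off-drug replicate 2. The cancer-testis antigens also leaned lower, with 18 of 27 tested members lower, 2 higher and a median change of −0.51, against 0.00 over all genes. The SPANX genes, a cluster of sperm-protein genes on the X chromosome, fell. SPANXB1 was at 64.1, 66.1 and 74.8 CPM in parental and 1.75, 5.24 and 1.57 CPM in off-drug libraries (−4.62 ± 0.26, adjusted p = 1.1e-09), and SPANXC at 12, 12.2 and 13.6 and 0.159, 0.737 and 0.0642 CPM (−5.37 ± 0.37). VCX3A, from another X-linked germ-cell family, fell from 79.1 ± 10.5 to 4.93 ± 1.29 CPM (−4.01 ± 0.15). MAGEA1 was at 1.5, 0.922 and 2.05 CPM in parental and 0.0397, 0.0819 and 0 CPM in off-drug libraries (−5.18 ± 0.75). GAGE2A moved the other way, from 10.4, 10.0 and 11.1 to 62.9, 56.3 and 69 CPM (2.58 ± 0.10). Members of the SPANX, VCX and GAGE families are near-identical copies of each other, so the values of single members are uncertain.

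**Figure D3:**
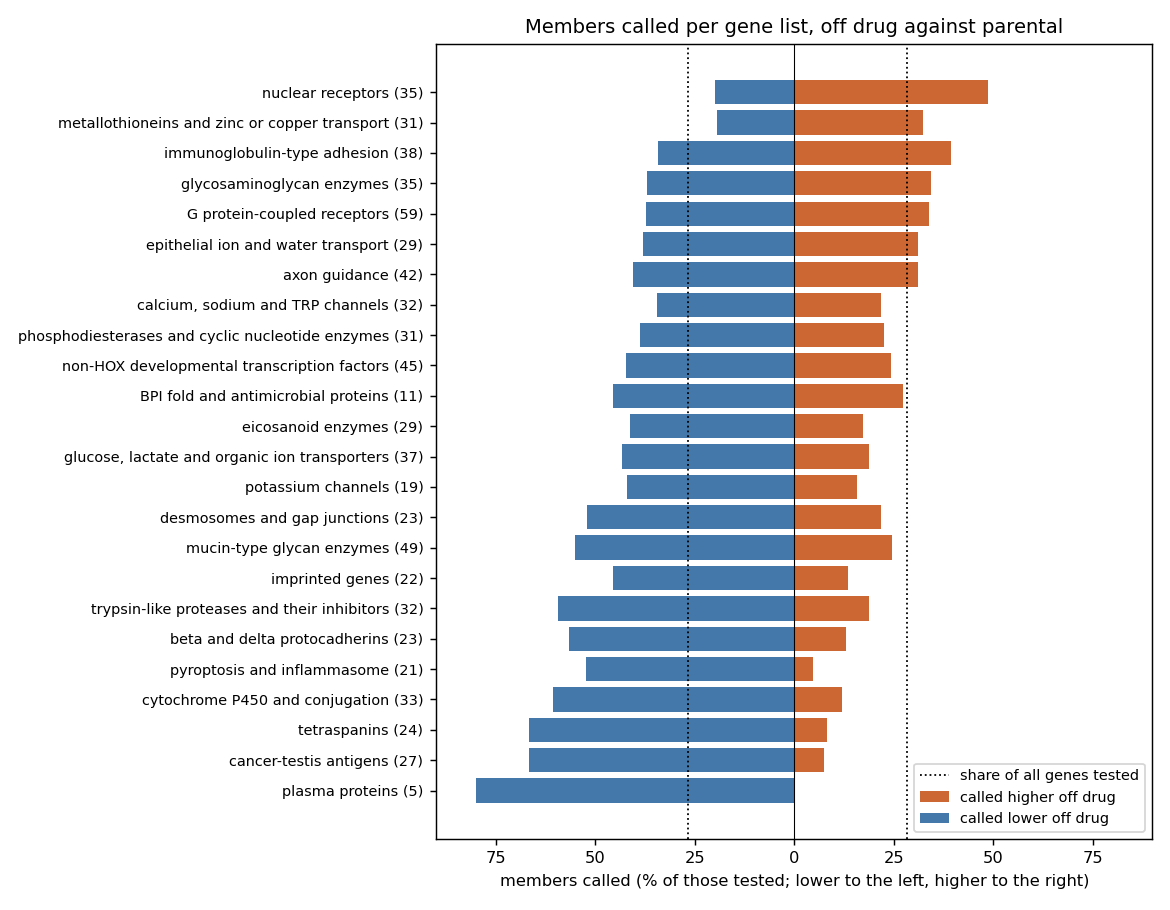
Share of tested members called higher (right) or lower (left) off drug at an adjusted p under 0.05 for 24 function lists, with the number tested in brackets and dotted lines at the share of all genes tested (28.4% higher and 26.6% lower). Plasma proteins reach 80% lower on 5 genes tested, cancer-testis antigens and tetraspanins reach 66.7% lower, and nuclear receptors reach 48.6% higher.

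Enzymes that build O-linked glycans on mucins fell more often than they rose, with 27 of 49 tested members lower, 12 higher and a median of −0.36. ST6GALNAC1, which caps the first sugar of a mucin glycan with sialic acid, was at 13.9, 15.3 and 15.6 CPM in parental, 0.476, 1.23 and 0.481 CPM in off-drug and 9.05, 7.11 and 10.9 CPM in on-drug libraries (−4.38 ± 0.25). GCNT3, a branching enzyme, fell from 45.1, 42.8 and 45.8 to 4.72, 7.45 and 4.49 CPM (−3.01 ± 0.15), and B3GNT6, which builds one of the glycan cores, fell by 3.19 ± 0.18. ST3GAL1, another sialyltransferase of mucin-type glycans, rose from 5.53, 7.29 and 5.1 to 34.1, 31.6 and 28.6 CPM (2.40 ± 0.15) and was at 0.785, 1.29 and 1.32 CPM on drug.

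Trypsin-like proteases and their inhibitors included 19 lower and 6 higher of 32 tested members, with a median of −0.78. The antiproteases SLPI and WFDC2, secreted into airway fluid, are known products of differentiated airway epithelium. SLPI was at 36.6, 35.9 and 43.5 CPM in parental and 1.79, 2.46 and 1.19 CPM in off-drug libraries (−4.44 ± 0.22), and WFDC2 at 31.1, 30.7 and 40.2 and 1.35, 3.32 and 1.67 CPM (−4.03 ± 0.25). TMPRSS4, a membrane-bound serine protease gene, fell from 434 ± 22.3 to 129 ± 5.54 CPM (−1.75 ± 0.09), while SERPINB7, an intracellular inhibitor, rose by 2.46 ± 0.18. Tetraspanins, membrane scaffolds, had 16 lower and 2 higher of 24, with TSPAN1 going from 334 ± 23.6 to 89.9 ± 6.36 CPM (−1.90 ± 0.09).

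Channels between cells and across the membrane changed in both directions. The gap junction gene GJB5 fell from 9.16, 11 and 10.9 to 0.238, 0.983 and 0.16 CPM (−4.55 ± 0.39). Desmosome and gap junction genes together had 12 lower and 5 higher of 23, with a median of −0.48 that changed sign to at most 0.06 on log2 TPM. FXYD3, a regulator of the sodium pump, fell from 211, 193 and 228 to 16.7, 23.6 and 17.2 CPM (−3.46 ± 0.15). AQP3, a water and glycerol channel, fell by 2.82 ± 0.13, whereas the water channel AQP1 rose by 2.71 ± 0.19. ANO1, a calcium-activated chloride channel, was at 19.3, 19.6 and 18.1 CPM in parental, 117, 117 and 112 CPM in off-drug and 2.82, 2.83 and 2.64 CPM in on-drug libraries (2.60 ± 0.08). CA9, a carbonic anhydrase known as a hypoxia marker, rose from 0.0654, 0.24 and 0.112 to 2.9, 1.84 and 2.09 CPM (4.04 ± 0.38). The epithelial ion and water transport list as a whole, with 9 higher and 11 lower of 29, was near the background.

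Genes of prostaglandin metabolism changed in both directions. PTGS1, the constitutive cyclooxygenase, was at 2.55, 2.72 and 3.2 CPM in parental and 0.119, 0.0819 and 0.0321 CPM in off-drug libraries (−5.17 ± 0.51). PTGS2, the inducible cyclooxygenase, rose from 8.5, 7.37 and 7.11 to 38.9, 41.2 and 37.9 CPM (2.36 ± 0.11). HPGD, which inactivates prostaglandins, fell from 134, 133 and 123 to 11.5, 16.4 and 11.6 CPM (−3.31 ± 0.14), and SLCO2A1, a prostaglandin transporter, rose by 2.23 ± 0.17. The terminal synthase PTGES was at 104 ± 13.2 and 109 ± 2.71 CPM with no call (0.07 ± 0.10, adjusted p = 0.59). Over the whole list of eicosanoid enzymes 12 of 29 were lower, 5 higher and the median was −0.57.

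Cytochrome P450 and conjugation genes had 20 lower and 4 higher of 33, with a median of −0.65. The sulfotransferase genes SULT1A1 (−2.54 ± 0.25), SULT2B1 (−2.19 ± 0.15) and SULT1E1 (−2.61 ± 0.27) all fell. SULT1E1, which inactivates oestrogen, was at 2.22, 2.04 and 1.64 CPM in parental and 0.317, 0.205 and 0.417 CPM in off-drug libraries but at 9.91, 11.9 and 9.24 CPM on drug. CYP24A1, the vitamin D-degrading enzyme, was one of the 4 that rose (1.39 ± 0.18). GPX2, a glutathione peroxidase of epithelia, had 12.2, 13.8 and 15 CPM in parental, 0.198, 0.45 and 0.0963 CPM in off-drug and 0.34, 0.296 and 0.336 CPM in on-drug libraries.

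Nuclear receptors leaned to higher levels, with 17 higher and 7 lower of 35 and a median of 0.28. PPARD, a fatty acid sensor, rose from 45.7, 46 and 39.7 to 155, 146 and 157 CPM (1.80 ± 0.09), and HNF4G, known from gut and pancreas, from 9.85, 10.8 and 9.16 to 28.9, 28.2 and 31.6 CPM (1.58 ± 0.10). PPARG and NR3C1, the glucocorticoid receptor gene, rose by 0.53 ± 0.08 and 0.54 ± 0.10. The orphan receptor gene RORB fell (−2.73 ± 0.38). Of developmental transcription factors outside the HOX clusters, 19 of 45 were lower and 11 higher. PITX1 (−2.23 ± 0.13) and IRX3 (−2.16 ± 0.14), both homeodomain genes, fell.

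ARHGAP30, a GTPase-activating protein gene, was at 1.64, 2.4 and 2.31 CPM in parental and 37.5, 39.1 and 35.1 CPM in off-drug libraries (4.15 ± 0.15). Guanine nucleotide exchange factor genes fell. VAV3 went from 71.3, 67.3 and 63.2 to 4.37, 6.63 and 4.53 CPM (−3.71 ± 0.13), and PREX1 (−3.99 ± 0.30) and ARHGEF38 (−3.72 ± 0.24) fell as well. Beta and delta protocadherins had 13 lower and 3 higher of 23 and a median of −0.82. PCDHB16 fell from 8.11, 7.25 and 7.15 to 1.83, 2.01 and 1.38 CPM (−2.12 ± 0.18) and was at 7.22, 5.46 and 6.78 CPM on drug. PCDH7 fell by 1.60 ± 0.14 and stood above the parental level on drug, at 41.2, 32.2 and 37.7 CPM.

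Pyroptosis and inflammasome genes had 11 lower and 1 higher of 21, with a median of −0.43. IL18, a cytokine that inflammasomes mature, fell from 56.4, 57.4 and 62.9 to 19.6, 22.4 and 21.5 CPM (−1.48 ± 0.11), and AIM2, a DNA sensor, from 31.8, 31.2 and 29.9 to 18.9, 15.7 and 14.7 CPM (−0.92 ± 0.12). Antigen presentation genes were named after their values were seen, starting from a run of neighbours on chromosome 6. HLA-DRB1, a class II antigen-presenting chain, was at 3.3, 3.65 and 4.62 CPM in parental and 0.159, 0.45 and 0.0963 CPM in off-drug libraries (−4.07 ± 0.37), and HLA-DRA at 0.916, 0.882 and 0.819 and 0, 0.0409 and 0 CPM (−5.73 ± 0.74). The class II partners CD74 (−2.23 ± 0.46), HLA-DMA (−2.14 ± 0.26) and HLA-DMB (−2.40 ± 0.55) fell, as did CIITA, the class II transactivator (−1.38 ± 0.51, adjusted p = 0.032). Of the class I genes, HLA-B (−1.46 ± 0.10), HLA-C (−1.08 ± 0.10) and the shared light chain gene B2M (−1.20 ± 0.11) fell. HLA genes are similar in sequence and vary between genomes, so the division of reads among them is uncertain.

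Changes along chromosomes were summarised by a rule added after the data had been seen. In windows of 10 Mb with at least 20 genes tested, 271 in all, the lower and upper deciles of the window medians were −0.27 and 0.24, and 4 windows lay beyond 0.5 in either direction. Of these, 3 were on chromosome 4, at 0 to 10 Mb (median −0.72, 67 of 86 genes lower), 30 to 40 Mb (−0.82, 20 of 24 lower) and 40 to 50 Mb (−0.94, 22 of 31 lower). Over all of chromosome 4, 313 of 634 genes (49.4%) were lower and the median was −0.36. The other was on chromosome 12 at 30 to 40 Mb, with 17 of 29 genes higher, 3 lower and a median of 0.82. With any 1 of the 6 libraries left out, these medians lay between −0.98 and −0.66 on chromosome 4 and between 0.69 and 0.87 on chromosome 12. In on-drug cells, which share the parental libraries as control, the same windows had medians of −0.44, −0.80, −0.91 and 0.44. DNA was not measured, and the part of DNA copy number in these values was not tested. On chromosome 4, GNPDA2, a glucosamine-6-phosphate deaminase gene, fell by 1.03 ± 0.11. COMMD8, a member of the COMMD family, fell by 1.35 ± 0.11, with 61.7, 56.7 and 67.4 CPM in parental and 22.7, 23.1 and 27.1 CPM in off-drug libraries. In the same run of neighbours the GABA receptor subunit genes GABRA2 (−1.37 ± 0.32) and GABRB1 (−2.49 ± 0.53) fell.

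**Figure D4:**
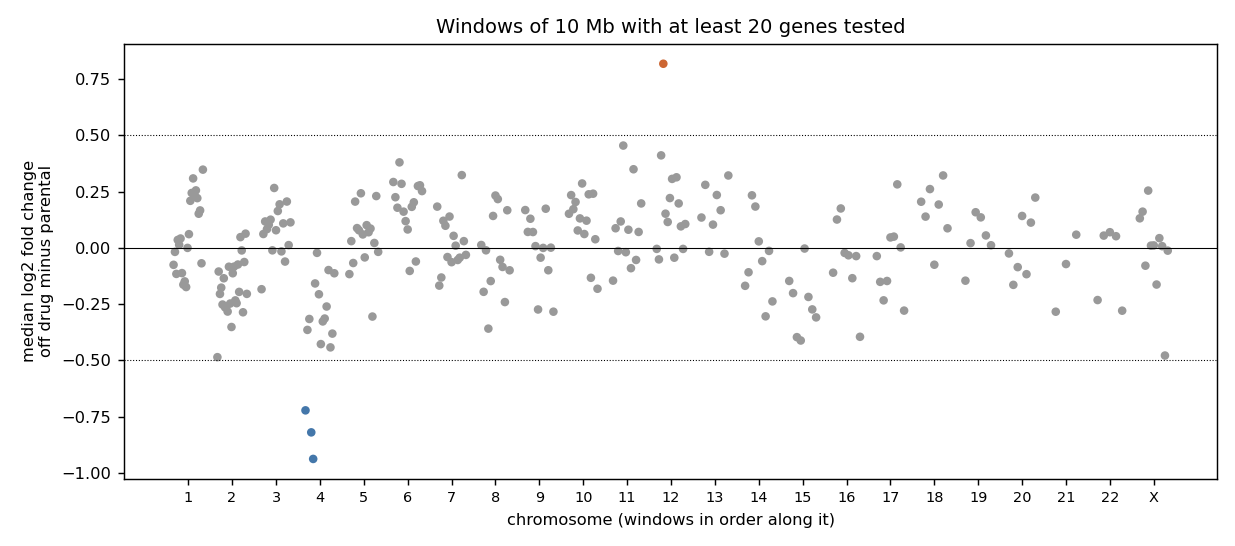
Median log2 fold change (off drug minus parental, vertical axis) of each 10 Mb window with at least 20 genes tested, in order along each chromosome (horizontal axis), with dotted lines at 0.5 in either direction. The 3 windows under the lower line are on chromosome 4 and the window above the upper line is on chromosome 12.

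Runs of at least 4 consecutive tested genes that were all called and changed at least 2-fold in one direction numbered 7 for rises (31 genes) and 19 for falls (83 genes). Some runs hold overlapping annotations, so their genes are not all separate. PCDHA2 and PCDHA3 both end at 141012344 on chromosome 5, and ENSG00000250644 overlaps IFITM10 and CTSD on chromosome 11. No expected number of runs is given, so the counts are a description. Without off-drug replicate 2, 4 of the runs of rises and 16 of the runs of falls held in full, and the 2 described next did not. The longest run of falls spanned chromosome 16 from 77722492 to 80892595 and had 7 genes, NUDT7 among them. ENSG00000276007, a transcript annotated as intronic within WWOX, lost its call without off-drug replicate 2 (adjusted p = 0.095). MAF, a bZIP transcription factor gene, was at 5.5, 6.13 and 6.33 CPM in parental and 0.873, 0.696 and 0.899 CPM in off-drug libraries (−2.85 ± 0.19). CDYL2, a chromodomain gene, was at 18, 16.7 and 13.6 and 0.952, 1.02 and 0.835 CPM (−4.11 ± 0.19), and ARLNC1, a long noncoding RNA known from prostate cancer, at 179, 170.5 and 166 and 7.5, 16.4 and 8.31 CPM (−4.01 ± 0.21). WWOX, a large gene at a fragile site, fell least in this run, from 8.47, 8.25 and 8.56 to 3.21, 4.67 and 3.95 CPM (−1.10 ± 0.15). A run of rises on chromosome 11 (11963106 to 12944483) held PARVA, an adhesion adaptor gene that went from 7.33, 8.33 and 6.37 to 43.8, 43.8 and 41.6 CPM (2.55 ± 0.10), and TEAD1, the DNA-binding partner of YAP, which rose by 1.27 ± 0.13. MICAL2, an actin-oxidising enzyme gene of that run, was called higher, but its rise of 0.98 without off-drug replicate 2 lay just under 2-fold.

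Off-drug replicate 2 departed from the other off-drug libraries among genes that had fallen close to silence. Genes that were nearly silent in replicates 1 and 3 kept a remainder of their parental level in replicate 2. Among genes with at least 5 CPM in every parental library that stood at 2% or less of the parental mean in the other 2 off-drug libraries, 9 such genes were found for replicate 2. Their level in replicate 2 was 3.29 to 6.39% of the parental mean, with a median of 4.72%. It was above both other libraries in all 9, which the choice of genes by low levels in replicates 1 and 3 favours. The 9 genes were CP, CRYM, CAPS, GPX2, KLHDC7A, SPANXC, SPANXA2, CAPNS2 and ANXA8. By contrast, 0 genes were at 2% or less in replicate 2 together with replicate 1, and 0 in replicate 2 together with replicate 3. At a near-zero limit of 0.1 CPM in both other off-drug libraries, 2 genes of that parental level remained. KLHDC7A had 377, 333 and 336 counts in parental libraries and 2, 17 and 0 off drug, and CAPNS2, a calpain subunit gene, had 383, 318 and 343 in parental and 0, 16 and 1 off drug. At a limit of 5%, each set was again chosen by low levels in the other 2 libraries. Replicate 2 was above both others in 28 of 29 genes (median 6.36%), replicate 1 in 2 of 12 (median 1.71%) and replicate 3 in 0 of 11 (median 2.37%).

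**Figure D5:**
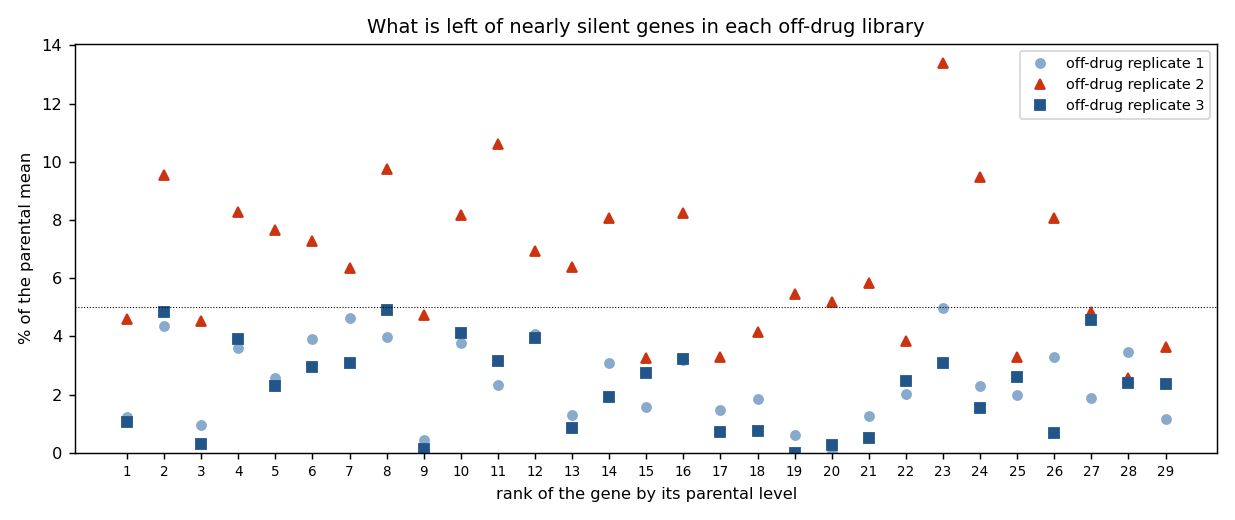
Level in each off-drug library as a percent of the parental mean (vertical axis) for the 29 genes with at least 5 CPM in every parental library and at 5% or less in replicates 1 and 3, ranked by parental level; the dotted line marks 5%. Replicate 2 is the highest of the 3 libraries in 28 of the 29 genes, which the choice of genes by replicates 1 and 3 favours.

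The remainder set which genes met the rule for switching off but not the direction of the changes. Without replicate 2, 22 genes were switched off in place of 9, among them KLHDC7A, CAPNS2, APOD and SPANXD, and 20 were switched on in place of 18, the added ones being PTPN22 and PDE4B. Leaving a library out can only add genes under this rule, so all 18 and all 9 had to meet it in both settings. The fitted changes of genes with a remainder grew without it, for example from −5.93 to −8.54 for CP, the copper carrier ceruloplasmin, and from −5.72 to −8.34 for KLHDC7A. Replicate 2 resembled parental libraries slightly more over all genes, with correlations of log CPM across genes of 0.946 to 0.951, against 0.942 to 0.947 for replicates 1 and 3. What the remainder comes from was not tested.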

How the data were processed

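Poly(A) RNA of 9 NCI-H358 samples was sequenced, in 3 groups of 3. The authors deposited estimated counts for each gene, which are not scaled, and TPM values, which are scaled for depth and transcript length. The submitters' processing notes name the build GRCh38.p13 and the tools Salmon 0.14.1, bcl2fastq 2.17 and FastQC 0.12.1, without their roles. The annotation, the strand setting and the step from transcripts to genes are not given there. The tests had been planned for plain counts, so the estimated counts were rounded to whole numbers.

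All 9 libraries were fitted together in edgeR 4.0.16 (R 4.3.3) with TMM scaling, a mean per group and filterByExpr (minimum count 10, minimum total 15). Residual degrees of freedom numbered 6, and the common coefficient of biological variation was 0.0946. The standard error of a change was taken as its size divided by the root of F, and p-values were adjusted by Benjamini-Hochberg over the 17307 genes tested. The steps were tested on simulated data. No 2 libraries of a group agreed within sampling noise (lowest chi-square per degree of freedom 5.114). Gene positions came from GENCODE release 29 for 17082 genes tested (98.7%), and promoter windows from RefSeq, with the first start listed taken per gene.

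The genes, lists, rules and alternatives were chosen with earlier results of these data known, so a pattern in a list is no independent evidence. Named genes were the 12 largest rises and falls without overlap between groups, up to 4 called members per list by size of change, up to 15 switched genes per direction and 6 genes that check the line. The text gives a selection, other list members and neighbours were named after their values were seen, and some genes the rule took are not reported here. Alternatives were DESeq2 1.42.0, upper-quartile or RLE factors or library size alone, a stricter filter or none, limma 3.58.1 on log2(TPM + 1) and log2(TPM + 0.1) for genes with a mean of at least 1 TPM, a fit of the 6 libraries compared, a replicate block, other limits for switched genes and each library left out. The windows, the runs of neighbours and the remainder limits of 2 and 5% were added after the data were seen. Intervals and floors cover counting error only. Counts of 0 in a library allow a level of up to that of 3 counts.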

Additional observations from a re-analysis of the deposited data

How the results depend on the processing

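Limma on log2(TPM + 1) and log2(TPM + 0.1), which changes the scale, the test and the genes tested together, called 2529 and 2531 genes lower in place of 4602, and 64.6% and 64.5% of calls were higher in place of 51.6%, with the median of all genes at 0.13 and 0.15. These fits tested 13826 genes in place of 17307. With upper-quartile factors 43.4% of calls were higher, and the median of all genes was −0.09. With each library left out in turn, 4435 to 4878 genes were higher and 4042 to 4378 lower. The replicate block gave 4906 higher and 4537 lower. Same-numbered parental and off-drug libraries deviated together with correlations of −0.03, 0.04 and 0.05, so the numbers were not taken to pair the samples. Genes switched on numbered 11 with a near-zero limit of 0.05 CPM, 1 with an on limit of 3 CPM, 31 with a near-zero limit of 0.2 CPM, and 20 to 23 with a library left out. Genes switched off numbered 5, 2 and 18 under the same limits, and 10 to 22 with a library left out, the 22 being without off-drug replicate 2. The median remainder in off-drug replicate 2 of genes at or below 0.1 CPM in the other 2 off-drug libraries was 5.32% of the parental mean, against 4.94% with a limit of 0.2 CPM, 4.72% with a limit of 2% of the parental mean and 6.36% with 5%. The same limits for switching in TPM gave 18 genes switched on, of which 6 were shared, and 8 switched off, of which 1 was shared, since TPM is scaled for length. Of 261 genes from the naming rule and the runs, 0 reversed wherever an alternative gave a value, which was for 172 genes on TPM, 235 with the stricter filter and 249 in the fit of the 6 libraries. With a library left out 5 to 12 lost their call, 8 without off-drug replicate 2 and 12 without off-drug replicate 3. The median of the desmosome and gap junction list changed sign on TPM, as did those of epithelial ion and water transport, potassium channels, G protein-coupled receptors and glycosaminoglycan enzymes. Levels near 0.1 CPM rest on about 3 counts, so near-zero genes cannot be ranked at this depth.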

Other observations

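Functions that the report does not describe were also measured. Glycosaminoglycan enzymes had 12 higher and 13 lower of 35. CEMIP, which breaks down hyaluronan, fell from 101, 110 and 89.9 to 11.5, 15.4 and 8.51 CPM. CHST3, which sulfates chondroitin, rose from 2.19, 2.97 and 1.94 to 13.6, 18.7 and 17.1 CPM, and DSE, which makes dermatan from chondroitin, rose from 3.24, 3.13 and 3.54 to 12.7, 13.4 and 13.1 CPM. These genes were named for their changes, so the lack of overlap between the groups is only a description of them.

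Axon guidance genes had 13 higher and 17 lower of 42. SEMA7A, a membrane-anchored semaphorin, was at 33.9, 36.7 and 39.5 CPM in parental, 138, 137 and 139 CPM in off-drug and 41.1, 36.7 and 39.5 CPM in on-drug libraries. PDE2A, a phosphodiesterase of cyclic nucleotides, was at 10.5, 10.5 and 10.7 CPM in parental, 72.1, 70.9 and 70.1 CPM in off-drug and 0.314, 0.0807 and 0.31 CPM in on-drug libraries. Imprinted genes had 3 higher and 10 lower of 22, with H19, a noncoding RNA, higher (2.91 ± 0.19) and its neighbour IGF2, a growth factor gene, lower (−1.24 ± 0.11).

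BCAT1, a branched-chain aminotransferase gene on chromosome 12 outside the window described above, was at 113, 114 and 98.9 CPM in parental and 631, 632 and 622 CPM in off-drug libraries (2.53 ± 0.08, adjusted p = 4.5e-12).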
